A study of Homo sapiens with 28 samples.

Results

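Untreated RELB knockout clones of U937, a human monocytic cell line, were set against untreated p52 knockout clones, to ask what distinguishes loss of one NF-kB partner from loss of the other when no stimulus is given. The libraries were chosen by their labels: the 2 RELB-/- clones and the 2 p52-/- clones without lipopolysaccharide (LPS), 4 of the 28 libraries of the series. The labels give sample batches, and each batch that holds a RELB clone also holds a p52 clone: RELB replicate 1 and p52 replicate 2 are in batch A, and RELB replicate 2 and p52 replicate 1 are in batch B. The other groups compared are 3 untreated control clones (CTR) and the same RELB and p52 clones given LPS at 500 ng/ml. The control clones had received guide RNAs with no specific target. Control replicate 2 is in batch B, replicates 1 and 3 are in batch C, and none is in batch A. The remaining libraries are control clones with LPS, and p50, p65 and cREL knockout clones with and without LPS. They enter the shared model behind the p-values and the medians by chromosome given below. All libraries are labelled 6 h, and every group comes from the same cell line. Each untreated RELB or p52 library is 1 clone, and with 2 clones in a genotype a trait of 1 clone weighs heavily. The model behind the p-values takes in all 28 libraries and treats the untreated and LPS libraries of a clone as independent, although they deviated together (r = 0.395 in RELB clones and 0.203 in p52 clones, across genes), so its p-values mix repeats of a clone with the spread between clones and may be too small. All values per clone are CPM, counts divided by library size and scaled by edgeR's TMM method, and for RELB and for p52 they are given in the order batch A, batch B.

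NF-kB transcription factors work as pairs of subunits. In the noncanonical pathway, receptors such as the lymphotoxin beta receptor stabilise the kinase NIK, the precursor p100 encoded by NFKB2 is cut to p52, and p52 enters the nucleus with RELB as its partner. RELB also pairs with p50, and p52 can form pairs without RELB, so the 2 knockouts remove overlapping but different sets of dimers. In monocytes the noncanonical arm is known for its part in differentiation and antigen presentation, while the canonical p65 and p50 dimers carry the fast response to LPS.

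The 4 libraries held 12643438 to 19300056 counts, and RELB replicate 2 was the shallowest of them. Between 24909 and 25837 genes had a value above 0, and the 13 mitochondrial messenger RNAs took 2.09 to 3.83% of the counts, with the lowest share in RELB replicate 2. Among 12 genes that mark U937 cells, which include CD33, LYZ, CTSG and ELANE, 11 were expressed well enough to be tested, and their summed level was 8776 and 5881 TPM (a length-scaled level) in RELB clones, against 6790 and 8025 TPM in p52 clones; MPO, a granule enzyme of myeloid precursors, stood at 0 to 0.282 TPM. The 10 T and NK cell markers summed to 30.8 and 34.1 TPM in RELB clones, against 11.3 and 17.9 TPM in p52 clones. CD3D, CD3E and CD8A were listed at 0 in all 4 libraries, and IL7R, an interleukin receptor chain, made up most of the sum. The 6 B cell markers summed to 10.9 and 8.27 TPM in RELB clones and 9.23 and 10.5 TPM in p52 clones, with MS4A1 listed at 0. Markers of red cells and platelets, and of epithelium and fibroblasts, summed to 0.682 to 5.17 TPM. Elsewhere in the series, the clone labelled p65 replicate 1 held 52.1 TPM of RELA messenger RNA under LPS and 43.7 TPM without it, both higher than in any library of another genotype (23.2 to 38.3 TPM). Its libraries are in batch A and enter the model, and without them the same single gene passed in RELB against p52.

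The targeted genes came first. RELB lies on chromosome 19 from 45001430 to 45038198 (GRCh38, GENCODE release 29). RELB messenger RNA stood at 3.35 and 4.57 CPM in RELB clones, 3.22 and 3.98 CPM in p52 clones and 5.93, 15.5 and 4.89 CPM in CTR. NFKB2, on chromosome 10 from 102394110 to 102402529, stood at 1.74 and 2.18 CPM in RELB clones, 2.10 and 1.33 CPM in p52 clones and 4.19, 5.47 and 1.5 CPM in CTR. Neither gene separated the 2 knockouts: the log2 fold of RELB over p52 clones was 0.11 ± 0.55 (SE) for RELB and 0.13 ± 0.53 for NFKB2, and the groups overlapped for both. The labels do not give the edited positions, and a small deletion need not lower messenger RNA, so these levels do not check the labels.

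1 gene separated RELB from p52 clones past the test: STARD4, a carrier of cholesterol between membranes, was higher in RELB clones. In edgeR's quasi-likelihood test with Benjamini-Hochberg adjustment, it was the only one of 18624 genes with an adjusted p under 0.05 (0.00537%). At an unadjusted p under 0.05 there were 1148 genes (6.16%), 584 higher in RELB (3.14%) and 564 lower (3.03%). Both RELB clones lay above both p52 clones for 3178 genes (17.1%) and below both for 2819 (15.1%). The count of 1 was 48 without RELB replicate 1, 5 without RELB replicate 2 and 0 without either p52 clone. The shares above are the background for all counts of list members that follow. The genes described next were taken from the lowest p-values in either direction and from gene lists, and all except STARD4 missed the adjusted threshold, so their values are descriptions of these 4 clones.

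**Figure D1:**
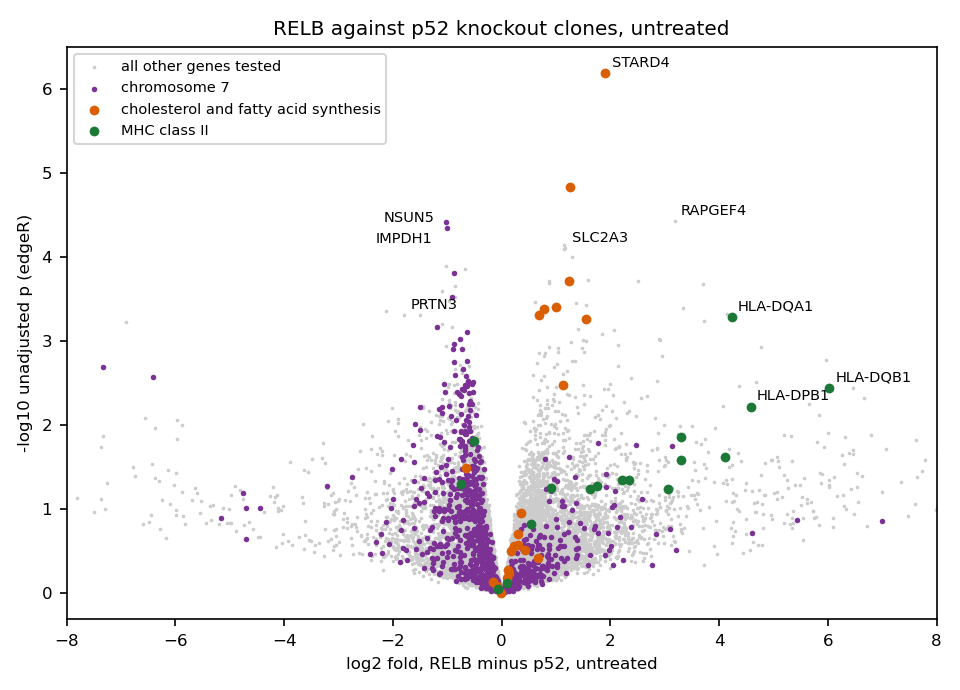
Each point is 1 of the genes tested, at its log2 fold of RELB over p52 untreated clones (x axis) and −log10 of its unadjusted edgeR p (y axis). Cholesterol genes and MHC class II genes are coloured and lie mostly to the right, chromosome 7 genes mostly to the left, and STARD4, with a log2 fold of 1.91, stands highest; 9 genes lie outside the plotted range of 8 in either direction.

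The promoters of STARD4 and of 3 further genes that were higher in RELB clones are shown for their CCAAT box, which the factor NF-Y binds. Members of 2 gene groups described below, sterol genes and MHC class II genes, are known to use NF-Y. NXPE3 and CPEB4 belong to neither group. Each promoter shown holds the box, so the sequences do not show how common it is among the higher genes. The sequences are up to 250 bases before the RefSeq start (GRCh38.p14), 5′ to 3′ on the strand of the gene, shortened where the GENCODE gene record begins earlier. The capitals mark GATTGG or its reverse complement, CCAATC.
STARD4 (chr5:111512591-111512785, minus strand): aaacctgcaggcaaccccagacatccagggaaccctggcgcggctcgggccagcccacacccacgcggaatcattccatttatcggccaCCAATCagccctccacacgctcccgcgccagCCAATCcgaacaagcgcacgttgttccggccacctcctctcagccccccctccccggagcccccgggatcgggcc
NXPE3 (chr3:101778961-101779201, plus strand): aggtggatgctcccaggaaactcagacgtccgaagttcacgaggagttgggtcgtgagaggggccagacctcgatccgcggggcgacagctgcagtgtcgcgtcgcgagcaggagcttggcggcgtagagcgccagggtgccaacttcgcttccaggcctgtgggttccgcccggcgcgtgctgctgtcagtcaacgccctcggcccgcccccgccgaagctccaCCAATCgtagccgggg
CPEB4 (chr5:173888099-173888279, plus strand): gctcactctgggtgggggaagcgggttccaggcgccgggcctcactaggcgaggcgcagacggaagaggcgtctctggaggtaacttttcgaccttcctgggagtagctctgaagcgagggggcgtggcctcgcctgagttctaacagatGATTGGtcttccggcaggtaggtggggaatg
HLA-DRB1 (chr6:32589849-32590098, minus strand): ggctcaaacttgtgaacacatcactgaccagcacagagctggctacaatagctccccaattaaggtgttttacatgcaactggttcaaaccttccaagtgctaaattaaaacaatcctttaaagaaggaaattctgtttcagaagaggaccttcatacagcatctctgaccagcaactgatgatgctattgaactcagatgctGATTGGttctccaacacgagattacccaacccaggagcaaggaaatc
STARD4 holds 2 of these boxes, and the other 3 promoters 1 each. GATTGG, searched on both strands, was in 14.1% of 35116 promoter windows of 250 bases. It was in 10 of the 16 promoters found for the cholesterol list, in 9 of 14 for the MHC class II list and in 6 of 16 for the 20 genes of lowest p. Members of both lists are known to use NF-Y, so their shares do not bear on RELB against p52. The 6 include NSUN5, which was lower in RELB clones. A part of NF-Y in the difference between the knockouts was not tested. The core of the sterol element (TCACNCCAC, both strands), the letters read by sterol-responsive SREBP factors, was in 0.883% of windows, and in the cholesterol list it was found in SREBF2 alone. The kappa B consensus was in 9.96% of windows. It was found in 5 of 16 cholesterol promoters, in 2 of 14 of MHC class II (CD74 and HLA-DPA1) and in 1 of 16 of the genes of lowest p (PYGL). A match is a run of letters and not a measured binding site.

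STARD4, the 1 gene called higher in RELB than in p52 clones, belongs to cholesterol handling. It lies on chromosome 5 from 111496033 to 111512590, on the minus strand. STARD4 stood at 32.2 and 70.7 CPM in RELB clones, 11.1 and 14.95 CPM in p52 clones and 12.1, 31.3 and 9.39 CPM in CTR. Both RELB clones were above both p52 clones, while the highest control clone lay just below the lower RELB clone. The mean was 51.4 ± 27.2 CPM in RELB clones and 13.0 ± 2.76 CPM in p52 clones (SD, n = 2 each), with a fold of 1.91 ± 0.27 on the log2 scale (SE; edgeR adjusted p = 0.012). The difference was 1.53 in batch A and 2.23 in batch B. An antisense gene, STARD4-AS1, overlaps it (log2 fold 0.69). The library kit does not mark strand, so reads from bases that the pair share cannot be told apart. Over 15 other settings the log2 fold of STARD4 ran between 1.64 and 2.19, and 7 of them kept it past the threshold (edgeR, DESeq2 or limma adjusted p = 2.6e-09 to 1). It lost its call in the other 8, without RELB replicate 2 (edgeR adjusted p = 0.0775), without p52 replicate 1 (0.569), without p52 replicate 2 (0.230), in the 14 untreated libraries alone (0.897), in the 4 RELB and p52 libraries alone (0.159), with replicate number in place of batch (0.814), with an offset for effective length (0.0797) and without a batch term (edgeR adjusted p = 1). It passed without RELB replicate 1 (edgeR adjusted p = 0.00224).

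Other sterol genes stood higher in RELB clones without passing the test. INSIG1, which holds the SREBP escort protein in the endoplasmic reticulum when sterol is plentiful, stood at 162 and 149 CPM in RELB clones and 50.1 and 90.01 CPM in p52 clones, with CTR at 87.3, 131 and 97.6 CPM (log2 fold 1.23 ± 0.27, SE; edgeR adjusted p = 0.216). The knockouts did not overlap, and both RELB clones were also above all 3 control clones.

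Enzymes early in the mevalonate pathway followed the same order. HMGCS1, which makes HMG-CoA, stood at 69.1 and 59.4 CPM in RELB clones and 39.5 and 25.9 CPM in p52 clones (log2 fold 0.99 ± 0.23, SE). MVK, the mevalonate kinase, stood at 18.4 and 42.6 CPM in RELB clones and 7.52 and 12.4 CPM in p52 clones (log2 fold 1.55 ± 0.38). For both genes the RELB clones were above both p52 clones. Further along, IDI1, an isomerase of the isoprenoid units, stood at 198 and 305 CPM in RELB clones and 123 and 109 CPM in p52 clones (log2 fold 1.12 ± 0.34). FDFT1, the squalene synthase that commits the pathway to sterol, stood at 252 and 384 CPM in RELB clones and 181 and 187 CPM in p52 clones (log2 fold 0.77 ± 0.18). PMVK, the kinase after MVK, ran the other way, at 56.4 and 34.3 CPM in RELB clones and 78.0 and 63.7 CPM in p52 clones (log2 fold −0.66 ± 0.29).

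Not all members were apart. FDPS, which makes farnesyl diphosphate, stood at 249.9 and 272 CPM in RELB clones and 246 and 278 CPM in p52 clones, a log2 fold of −0.003 ± 0.24. SCD, the stearoyl-CoA desaturase, stood at 698 and 1238 CPM in RELB clones and 859 and 876 CPM in p52 clones, which overlapped (log2 fold 0.10 ± 0.23). SREBF2, the SREBP gene that drives the sterol enzymes, stood at 31.2 and 124 CPM in RELB clones and 15.9 and 91.6 CPM in p52 clones, far apart within each genotype and higher in batch B. Of the 22 genes on the list, all tested, 1 was called, 8 were higher and 1 was lower at an unadjusted p under 0.05, and 9 (40.9%, against 17.1% of all genes) had both RELB clones above both p52 clones. The median log2 fold of the list was 0.32, against 0.012 over all genes tested. It was 0.24 in batch A and 0.68 in batch B.

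**Figure D2:**
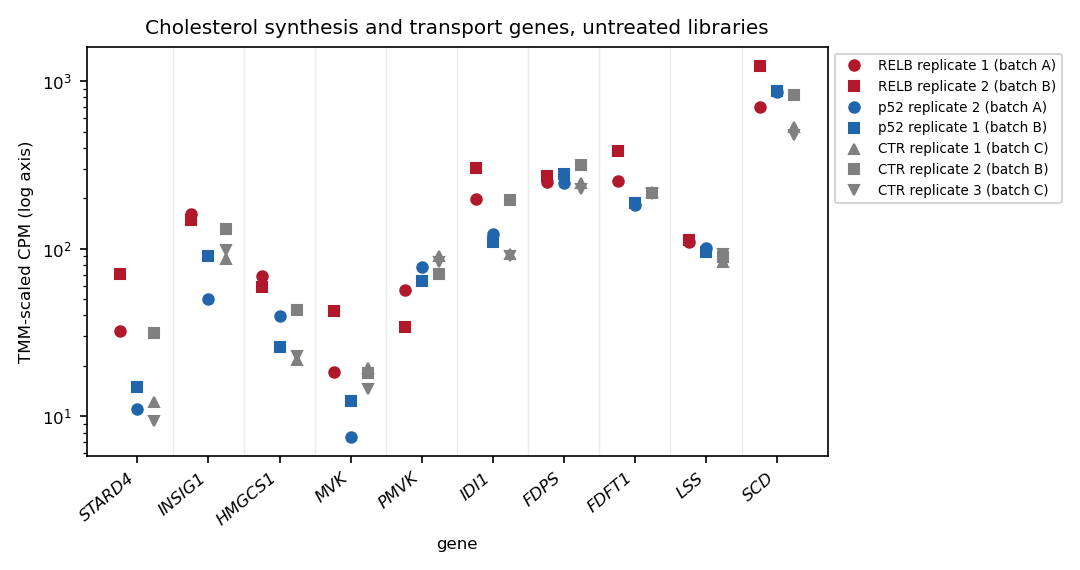
TMM-scaled CPM on a log axis for 10 genes of cholesterol synthesis and transport in the untreated libraries, 1 point per clone, with RELB left, p52 in the middle and CTR right within each gene. For STARD4 and FDFT1 both RELB points lie above both p52 points, at 32.2 and 70.7 against 11.1 and 14.95 CPM for STARD4, while the FDPS points overlap.

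MHC class II genes, which display peptides to CD4 T cells, had the largest median difference among the lists of 10 or more tested genes, and 0 of the 17 members passed the test. DESeq2 called HLA-DQA1, and edgeR without a filter on low counts called 10 members. HLA-DRA, the alpha chain of HLA-DR (chromosome 6 from 32439842 to 32445046), stood at 1623 and 747 CPM in RELB clones, 204 and 74.7 CPM in p52 clones and 50.7, 231 and 273 CPM in CTR. Both RELB clones lay above all p52 and control clones, but the clones of a genotype differed from each other by more than 2-fold, and RELB over p52 gave 3.05 ± 1.5 on the log2 scale (SE; edgeR adjusted p = 0.807). CD74, the invariant chain that guides class II molecules through the cell, stood at 804 and 498 CPM in RELB clones, 226 and 167 CPM in p52 clones and 91.7, 167 and 227 CPM in CTR (log2 fold 1.75 ± 0.84). Whether more cells of a clone express these genes or each cell holds more of their RNA cannot be told apart in bulk libraries.

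The HLA-DP and HLA-DQ chains were lower in level and further apart. HLA-DPA1 stood at 171 and 64.5 CPM in RELB clones, 7.78 and 7.22 CPM in p52 clones and 1.10, 6.54 and 18.98 CPM in CTR (log2 fold 4.10 ± 1.65, SE). HLA-DPB1, the matching beta chain, stood at 61.0 and 15.1 CPM in RELB clones and 2.10 and 1.15 CPM in p52 clones (log2 fold 4.58 ± 1.47). HLA-DQA1 stood at 28.9 and 4.91 CPM in RELB clones and 0.870 and 1.04 CPM in p52 clones (log2 fold 4.23 ± 1.02; edgeR adjusted p = 0.276). HLA-DQB1 stood at 14.3 and 6.96 CPM in RELB clones and 0.0512 and 0.289 CPM in p52 clones, where it rests on very few counts. In each of these genes RELB replicate 1, in batch A, held the highest level, and both p52 clones lay below both RELB clones. HLA-DMB, a chain of the peptide-loading chaperone HLA-DM, stood at 19.2 and 8.19 CPM in RELB clones and 1.53 and 1.33 CPM in p52 clones (log2 fold 3.31 ± 1.21), and HLA-DMA at 41.2 and 21.7 CPM in RELB clones and 9.87 and 12.9 CPM in p52 clones (log2 fold 1.63 ± 0.80). HLA-DRB1 and HLA-DRB5 are near-identical copies between which reads may be split. HLA-DRB1 stood at 264 and 92.5 CPM in RELB clones and 48.8 and 31.8 CPM in p52 clones. HLA-DRB5 stood at 185 and 60.2 CPM in RELB clones and 17.8 and 7.56 CPM in p52 clones. The summed T and NK cell markers given above also stood higher in RELB clones than in p52 clones, and at 11.1, 34.6 and 14.2 TPM in CTR; their part in these values was not tested.

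The regulators of the class II promoters stood closer together than their targets. CIITA, the class II transactivator, stood at 7.67 and 9.42 CPM in RELB clones and 6.86 and 4.97 CPM in p52 clones (log2 fold 0.54 ± 0.36). RFX5 and RFXANK, subunits of the factor that binds the X box, were lower at an unadjusted p under 0.05, with log2 folds of −0.52 ± 0.20 and −0.75 ± 0.36. RFX5 stood at 51.5 and 64.8 CPM in RELB clones and 74.5 and 91.7 CPM in p52 clones. RFXANK had estimated counts, before scaling for depth, of 601 and 241 in RELB clones and 823 and 787 in p52 clones. It lies on chromosome 19, which was low as a whole in RELB replicate 2, as described below. Of the 17 members, 8 were higher and 2 lower at an unadjusted p under 0.05, and 13 (76.5%, against 17.1% of all genes) had both RELB clones above both p52 clones. The median log2 fold was 2.22, with 2.05 in batch A and 1.57 in batch B, and without RELB replicate 1 it was 0.997. Beside CTR, the median log2 fold was 2.06 for RELB clones and −0.20 for p52 clones in comparisons that share the control clones.

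**Figure D3:**
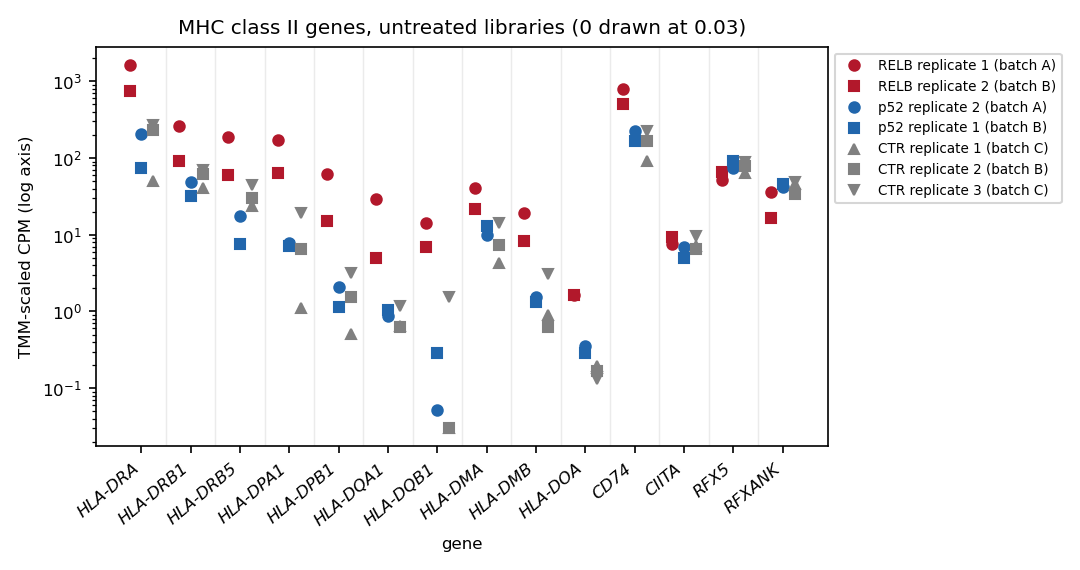
TMM-scaled CPM on a log axis for 14 MHC class II genes and their regulators in the untreated libraries, 1 point per clone, with RELB left, p52 in the middle and CTR right; a CPM of 0 is drawn at the lower edge. The RELB clones reach 1623 and 747 CPM of HLA-DRA and lie above both p52 clones for the class II chains, and below them for RFX5 and RFXANK.

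The genes of lowest p outside these groups were a mixed set. RAPGEF4, an exchange factor switched on by cyclic AMP, stood at 9.22 and 9.14 CPM in RELB clones, 0.767 and 1.33 CPM in p52 clones and 0.258, 0.282 and 1.04 CPM in CTR (log2 fold 3.18 ± 0.60, SE; edgeR adjusted p = 0.169). SLC2A3, the glucose transporter GLUT3, stood at 94.2 and 95.7 CPM in RELB clones, 46.8 and 37.0 CPM in p52 clones and 37.7, 55.6 and 44.5 CPM in CTR (log2 fold 1.17 ± 0.24; edgeR adjusted p = 0.187). STC1, a secreted glycoprotein, stood at 45.0 and 47.7 CPM in RELB clones and 13.3 and 18.8 CPM in p52 clones (log2 fold 1.58 ± 0.35). The RELB clones of each of these genes were above both p52 clones, which the rule that named them required. CPEB4, which binds messenger RNA and controls its polyadenylation, stood at 36.3 and 41.9 CPM in RELB clones and 13.1 and 19.2 CPM in p52 clones (log2 fold 1.30 ± 0.27). NXPE3 (1.14 ± 0.23), TMEM94 (1.14 ± 0.23) and IPCEF1, a partner of cytohesin exchange factors (2.52 ± 0.54), were further higher genes of lowest p, given by log2 fold.

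The 10 lower genes of lowest p included 4 from 1 chromosome. NSUN5, which methylates ribosomal RNA, stood at 77.4 and 42.4 CPM in RELB clones, 130.4 and 107 CPM in p52 clones and 199, 76.9 and 155 CPM in CTR (log2 fold −1.03 ± 0.20, SE; edgeR adjusted p = 0.169). IMPDH1, an enzyme of guanine nucleotide synthesis, stood at 111 and 73.3 CPM in RELB clones and 219 and 150.2 CPM in p52 clones (log2 fold −1.01 ± 0.19). SUMF2 stood at 70.3 and 53.8 CPM in RELB clones and 128 and 98.7 CPM in p52 clones (log2 fold −0.87 ± 0.19), and RCC1L, a mitochondrial protein, at 23.1 and 18.4 CPM in RELB clones and 44.2 and 34.3 CPM in p52 clones (log2 fold −0.92 ± 0.21). These 4 lie on chromosome 7, at chr7:73302517-73308867 for NSUN5, chr7:128392277-128410252 for IMPDH1, chr7:56064002-56080670 for SUMF2 and chr7:75027122-75074228 for RCC1L. On other chromosomes, VIM, the intermediate filament protein vimentin, stood at 354 and 291 CPM in RELB clones and 653 and 656 CPM in p52 clones (log2 fold −1.01 ± 0.21). BSG, a chaperone of lactate transporters, stood at 254 and 283 CPM in RELB clones and 537 and 438 CPM in p52 clones (log2 fold −0.86 ± 0.19), and PYGL, the liver form of glycogen phosphorylase, had a log2 fold of −0.68 ± 0.14. DHX37, a helicase of ribosome assembly (−1.10 ± 0.25), CSTF2T, a cleavage factor of messenger RNA ends (−0.85 ± 0.19), and CD3EAP, a subunit of RNA polymerase I (−0.96 ± 0.22), complete the 10. CD3EAP overlaps ERCC1 on the other strand, and reads from bases that they share cannot be told apart.

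Chromosome 7 as a whole was low in 1 clone. For each library the genes of a chromosome with a mean of at least 5 CPM were set against the median library, and the median difference taken. In RELB replicate 2 the 481 genes of chromosome 7 had a median of −0.723 on the log2 scale without LPS and −0.732 with LPS. The other 13 untreated libraries lay between −0.0544 and 0.042 on that chromosome, and RELB replicate 1 was at −0.0544. RELB replicate 2 was also low on chromosome 19 (−0.276 over 642 genes) and high on chromosome 12 (0.279 over 549 genes), and between −0.133 and 0.0572 on its other chromosomes. Chromosome 17 was higher in the RELB clone of both pairs. Its 575 genes had a median difference of 0.193 in batch A and 0.159 in batch B. TMEM94 and BIRC5, which stood higher in RELB clones, lie on chromosome 17. In batch B, 93.6% of the chromosome 7 genes were lower in RELB replicate 2 than in p52 replicate 1, and in batch A 56.3% were lower in RELB replicate 1 than in p52 replicate 2. ASNS, the asparagine synthetase on chromosome 7, named after its values were seen, stood at 43.4 and 0.682 CPM in RELB clones and 37.2 and 29.8 CPM in p52 clones. Copy number was not measured, and what lowers these genes was not tested.

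**Figure D4:**
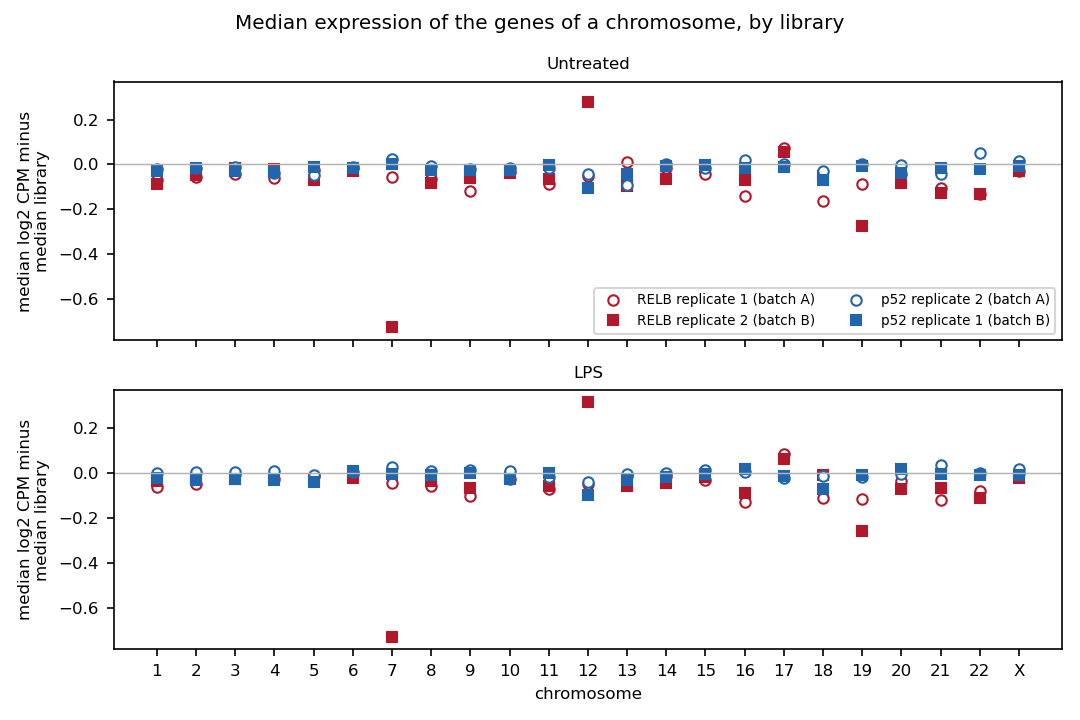
Median over the genes of each chromosome (x axis) of log2 CPM minus that of the median library (y axis), for the RELB and p52 clones untreated (top) and with LPS (bottom), 1 point per clone. RELB replicate 2 stands apart on chromosome 7, at −0.723 untreated and −0.732 with LPS.

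This touches the genes that stood lower in RELB clones more than those that stood higher. Chromosome 7 held 923 of the 18624 genes tested (4.96%), 136 of the 564 lower at an unadjusted p under 0.05 (24.1%), and 10 of the 584 higher (1.71%). The median log2 fold was −0.319 on chromosome 7 and 0.0224 over the 17701 other genes. The rule that named 10 genes in each direction asked for no overlap between the clones. It therefore fixed the sign of their differences in batch A, which does not hold RELB replicate 2. There NSUN5, IMPDH1, SUMF2 and RCC1L differed by −0.75, −0.98, −0.86 and −0.93 on the log2 scale. The median over the chromosome 7 genes with a mean of at least 5 CPM was −0.0818 in batch A. INSIG1 lies on the same chromosome and stood higher in both RELB clones, by 1.69 in batch A and 0.72 in batch B. On chromosome 19 lie C5AR1, the formyl peptide receptors, RFXANK, GPI and 2 of the 10 lower genes, BSG and CD3EAP. In batch A, BSG and CD3EAP differed by −1.08 and −1.12, with the sign fixed by the same rule. SLC2A3, MVK and the lower gene DHX37 lie on chromosome 12. Without the members on chromosomes 7, 12 and 19 the median log2 fold of the cholesterol list was 0.26, and that of MHC class II was 2.28. Of 4 equal groups of genes by effective length, the shortest had a median difference of −0.198 and the longest one of 0.166 in batch B, and 0.046 and −0.0055 in batch A.

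Monocyte receptors stood on both sides. C5AR1, the receptor for complement fragment C5a, stood at 103 and 24.02 CPM in RELB clones, 13.7 and 19.6 CPM in p52 clones and 11.1, 9.81 and 4.37 CPM in CTR (log2 fold 2.15 ± 0.82, SE). FPR2, a formyl peptide receptor, stood at 60.1 and 25.7 CPM in RELB clones and 17.9 and 14.6 CPM in p52 clones (log2 fold 1.35 ± 0.37), and its relative FPR1 at 16.2 and 6.00 CPM in RELB clones and 1.64 and 3.87 CPM in p52 clones (log2 fold 2.26 ± 0.72). RELB replicate 1 stood highest for these 3 genes, and without it the log2 fold of C5AR1 was −0.084. All 3 lie on chromosome 19, which was low as a whole in RELB replicate 2. ITGAX, the CD11c integrin chain, stood at 48.1 and 36.0 CPM in RELB clones and 17.9 and 21.4 CPM in p52 clones (log2 fold 1.16 ± 0.39). CSF2RB, the signalling chain shared by the GM-CSF, IL-3 and IL-5 receptors, was even between clones of a genotype, at 68.9 and 56.2 CPM in RELB clones and 35.5 and 33.3 CPM in p52 clones (log2 fold 0.86 ± 0.19; edgeR adjusted p = 0.216). ANPEP, the aminopeptidase CD13, was lower, at 161 and 199 CPM in RELB clones and 270.2 and 429.6 CPM in p52 clones (log2 fold −0.92 ± 0.33). Of 27 tested members 0 were called, 6 were higher and 2 lower at an unadjusted p under 0.05, and 9 (33.3%) had both RELB clones above both p52 clones.

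In the list of S100 and oxidative burst genes, CYBB, the catalytic subunit of the phagocyte oxidase, stood at 49.2 and 54.6 CPM in RELB clones, 11.1 and 9.35 CPM in p52 clones and 17.6, 6.04 and 45.5 CPM in CTR (log2 fold 2.38 ± 0.68, SE). CYBA, the small membrane subunit, stood at 15.8 and 6.89 CPM in RELB clones and 17.2 and 24.6 CPM in p52 clones. CYBB had both RELB clones above both p52 clones, and CYBA had both below. S100A4, a calcium-binding protein and the S100 gene given here, chosen after its values were seen, stood at 139 and 39.4 CPM in RELB clones and 98.3 and 208 CPM in p52 clones, which overlapped. Of the 19 tested genes of that list 0 were called, 5 (26.3%) had both RELB clones above both p52 clones and 2 (10.5%) below. The median log2 fold was −0.53, and its sign differed between the pairs, at 0.29 in batch A and −1.71 in batch B.

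Granule proteins of early myeloid cells were mixed, with some members lower in both RELB clones. PRTN3, a serine protease, stood at 259 and 203 CPM in RELB clones, 722 and 889 CPM in p52 clones and 664, 331 and 688 CPM in CTR (log2 fold −1.79 ± 0.42, SE; edgeR adjusted p = 0.271). ELANE, the neutrophil elastase, stood at 818 and 374 CPM in RELB clones, 1262 and 1856 CPM in p52 clones and 1311, 486 and 1005 CPM in CTR (log2 fold −1.39 ± 0.51). For both genes the RELB clones were below both p52 clones, and both lie on chromosome 19. CTSG, the protease cathepsin G, stood at 1856 and 651 CPM in RELB clones and 982 and 979 CPM in p52 clones, with RELB replicate 1 the highest and RELB replicate 2 the lowest. Of 13 tested members 0 were called, and 5 (38.5%, against 15.1% of all genes) had both RELB clones below both p52 clones, while 5 were higher by the sign of their fold. The median log2 fold was −0.36, with −0.13 in batch A and −0.70 in batch B, and −0.193 without the 4 members on chromosome 19.

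None of the listed NF-kB genes passed the edgeR test. Of 10 subunit and canonical kinase genes, 0 had an unadjusted p under 0.05, and 4 (40%) had both RELB clones below both p52 clones: RELA, TAB1, TAB2 and TRADD. RELA, which encodes p65, stood at 47.0 and 43.9 CPM in RELB clones and 53.8 and 52.5 CPM in p52 clones. In the noncanonical pathway, MAP3K14, which encodes the kinase NIK, stood at 10.8 and 12.1 CPM in RELB clones and 8.60 and 6.99 CPM in p52 clones. OTUD7B, a deubiquitinase of the NIK pathway, stood at 4.79 and 5.59 CPM in RELB clones and 2.05 and 3.35 CPM in p52 clones (log2 fold 0.97 ± 0.35). Of the 19 tested members 3 (15.8%) had both RELB clones above both p52 clones, near the background. Among feedback genes, NFKBIZ, a nuclear IkB protein that modulates NF-kB, stood at 16.8 and 11.1 CPM in RELB clones and 5.01 and 4.97 CPM in p52 clones (log2 fold 1.54 ± 0.40). Of the 17 feedback genes 5 (29.4%) had both RELB clones above both p52 clones and 0 were called.

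Among secreted signals, CXCL8, a chemokine for neutrophils, stood at 58.9 and 122 CPM in RELB clones, 27.5 and 32.8 CPM in p52 clones and 48.3, 128 and 38.5 CPM in CTR (log2 fold 1.51 ± 0.46, SE; edgeR adjusted p = 0.606). The control clones spanned the RELB clones. IL23A, a subunit of interleukin-23, was low, at 1.38 and 2.59 CPM in RELB clones and 0.256 and 0.231 CPM in p52 clones. Chemokines and cytokines counted 17 and 16 tested genes, of which 0 were called. Interferon-stimulated genes had the second highest share of members above: of 47 tested, 25 (53.2%) had both RELB clones above both p52 clones, with a median log2 fold of 0.57. Without the 8 members on chromosomes 7, 12 and 19 that median was 0.383. At an unadjusted p under 0.05, 0 were higher and 1 lower (IFITM2, an antiviral membrane protein, −1.17 ± 0.49). IFITM2 had estimated counts, before scaling for depth, of 1001 and 311 in RELB clones and 1389 and 1621 in p52 clones. OAS1, a sensor of double-stranded RNA, stood at 18.99 and 16.5 CPM in RELB clones, 3.27 and 3.98 CPM in p52 clones and 141, 6.32 and 7.76 CPM in CTR, so that CTR replicate 1 lay far above all the knockout clones.

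In the lists for metabolism and proliferation single members stood apart. PFKFB4, a regulator of glycolytic flux, stood at 31.2 and 47.5 CPM in RELB clones and 14.99 and 14.5 CPM in p52 clones (log2 fold 1.40 ± 0.35). GPI, an enzyme of the glycolytic chain, stood at 1412 and 1239 CPM in RELB clones and 2187 and 1571 CPM in p52 clones (log2 fold −0.49 ± 0.16). BIRC5, the mitotic protein survivin, stood at 99.7 and 74.4 CPM in RELB clones and 59.0 and 42.8 CPM in p52 clones (log2 fold 0.78 ± 0.23). The 24 genes of glycolysis and hypoxia had a median log2 fold of −0.05 with as many members above (16.7%) as below, and the 29 genes of the cell cycle one of −0.04.

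**Figure D5:**
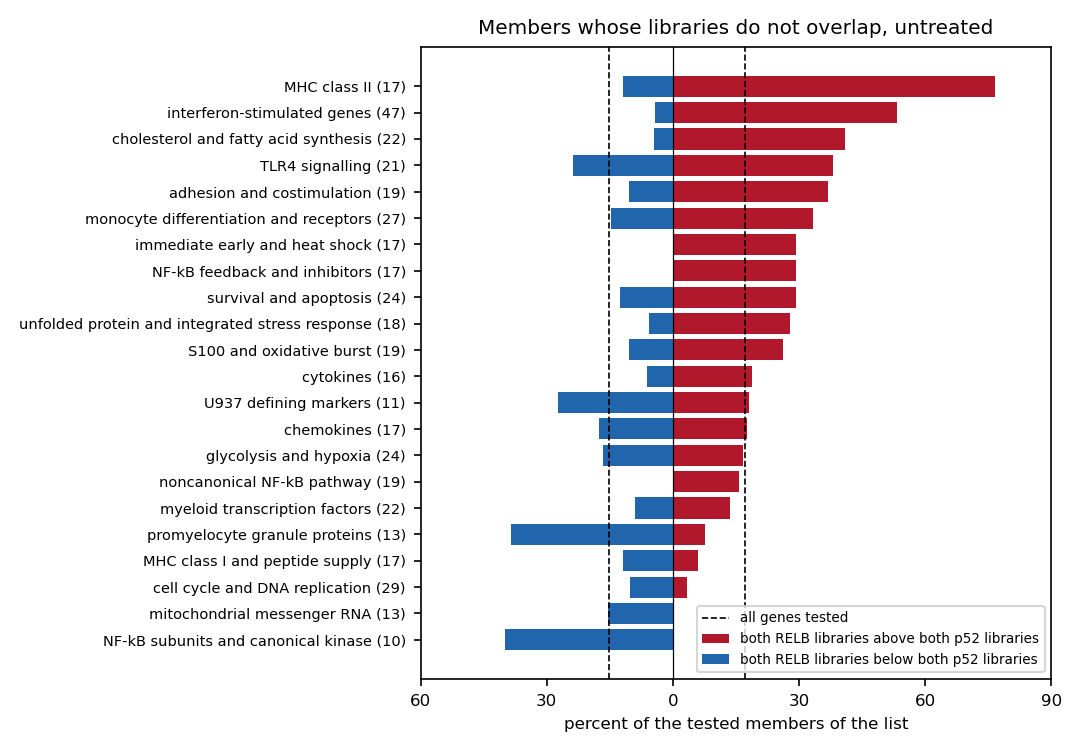
For each list of 10 or more tested genes (number in brackets), the percentage of members with both RELB untreated libraries above both p52 libraries (red, to the right) and below both (blue, to the left), with dashed lines at the shares over all genes tested, 17.1% and 15.1%. MHC class II reaches 76.5% and the interferon-stimulated genes 53.2% above, and the NF-kB subunits 40% and the granule proteins 38.5% below.

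The same clones with LPS gave a further reading, though not in further clones. Their LPS libraries also entered the model whose p-values ranked the genes without LPS, so this reading is not independent of that choice. With LPS, 31 genes separated RELB from p52 clones (0.166%), 26 higher (0.14%) and 5 lower (0.0268%), and 1649 (8.85%) had an unadjusted p under 0.05, 745 higher (4%) and 904 lower (4.85%). Among the called genes were 7 of the 20 genes of lowest p without LPS. STARD4 with LPS stood at 34.4 and 68.8 CPM in RELB clones and 11.5 and 15.3 CPM in p52 clones. Its log2 fold of RELB over p52 clones was 1.88 ± 0.27 (SE, edgeR adjusted p = 0.0048). HMGCS1 was also higher in RELB clones, at 96.2 and 112 CPM against 39.8 and 32.7 CPM in p52 clones (log2 fold 1.54 ± 0.24, edgeR adjusted p = 0.00824). In all, 4 of the 22 cholesterol genes were called, with a list median of 0.35. SLC2A3 had the largest log2 fold of RELB over p52 clones of the 7, at 2.23 ± 0.24 (edgeR adjusted p = 2.6e-04). It stood at 166 and 216 CPM in RELB clones and 38.5 and 42.4 CPM in p52 clones. STC1 (2.12 ± 0.35) and CPEB4 (1.36 ± 0.27) were also called higher, and IMPDH1 (−0.97 ± 0.19) and CD3EAP (−1.23 ± 0.22) lower.

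Outside those genes, the receptor chain CSF2RB (1.01 ± 0.19) was called higher with LPS, as were the chemokine genes CXCL8 (2.68 ± 0.48), CXCL2, CCL4 and CCL4L2 and the cytokine genes IL1B and OSM. CCL4 and CCL4L2 are near-identical copies, between which reads may be split. The MHC class II genes stayed apart without passing: 0 of 17 were called, 10 were higher at an unadjusted p under 0.05 and the list median was 2.26. HLA-DRA with LPS stood at 1865 and 849.6 CPM in RELB clones and 201 and 86.1 CPM in p52 clones. The change of the RELB to p52 difference with LPS was tested directly. edgeR called 0 genes in the model in which a clone's libraries are not paired, with 445 (2.39%) at an unadjusted p under 0.05, 129 above 0 (0.693%) and 316 below 0 (1.7%), and DESeq2 called 5. With each clone as a fixed block, which pairs them (8 residual degrees of freedom), edgeR also called 0, with 1033 genes at an unadjusted p under 0.05. For SLC2A3 the log2 fold with LPS minus that without was 1.06 ± 0.33 (SE; edgeR adjusted p = 1), and for STARD4 it was −0.03 ± 0.37.

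Each knockout was also read beside CTR, in comparisons that share the 3 control clones. Over CTR, STARD4 differed by a log2 fold of 1.06 ± 0.26 in RELB clones (SE; edgeR adjusted p = 0.136) and −0.84 ± 0.26 in p52 clones (edgeR adjusted p = 0.451). HLA-DRA had 2.82 ± 1.46 in RELB clones and −0.24 ± 1.46 in p52 clones over CTR. 2 genes (0.0107%) separated RELB clones from CTR past the test, RAPGEF4 at 4.48 ± 0.65 (edgeR adjusted p = 0.0143) and MST1, a plasma protein resembling hepatocyte growth factor, at 1.90 (edgeR adjusted p = 0.0143; named after its value was seen). At an unadjusted p under 0.05 there were 2057 genes (11%) for RELB clones against CTR, 998 higher (5.36%) and 1059 lower (5.69%). For p52 clones against CTR edgeR called 0 genes, with 1416 (7.6%) at an unadjusted p under 0.05, 721 higher (3.87%) and 695 lower (3.73%), while DESeq2 was not run on this contrast. PRTN3 had −0.60 ± 0.42 in RELB clones and 1.19 ± 0.41 in p52 clones over CTR. These folds rest on the batch term, since batch A holds no control clone and batch B holds 1. In CPM both RELB clones of STARD4 lay above the 3 control clones, and the p52 clones overlapped them. Neither fold of STARD4 passed the test.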

How the data were processed

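Per the labels, polyadenylated RNA of U937 clones was reverse transcribed, amplified by PCR, made into libraries with a Nextera XT kit, which does not mark strand, and read from both ends. Per the submitters' processing notes, Salmon 0.11.3, FastQC 0.11.7 and GRCh38 were used; the annotation release is not given in the sources used here. The authors deposited estimated counts per gene symbol (not scaled; 41 to 43.8% of nonzero values whole in the 4 libraries compared), TPM values scaled by the authors to 1 common total per library, and an effective length in bases per gene, taken as a score. All 56809 symbols matched GENCODE release 29. Batches, genotypes and replicates were taken from the labels.

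The counts, rounded, went into edgeR 4.0.16 (R 4.3.3). Its filterByExpr function, at a minimum count of 10 and a minimum total of 15, kept 18624 genes, and TMM set the scaling. The robust quasi-likelihood fit over all 28 libraries held 12 groups and 3 batches (14 residual degrees of freedom, biological coefficient of variation 31.7%); untreated and LPS libraries of a clone were treated as independent, so p-values may be too small. A gene was called where its p, adjusted by Benjamini-Hochberg over all genes, was under 0.05. The SE given with a log2 fold was derived from the test, as the size of the fold divided by the square root of its quasi-likelihood F. The script was tested on simulated data. Differences within a batch used log CPM with a prior count of 2. The named genes are those passing, then the 10 of lowest p in either direction with at least 5 CPM and no overlap between the clones, and list members; members outside the rule (such as CYBB, FPR1, NFKBIZ and HLA-DQA1) were chosen after their values were seen. The members and the lists were chosen with earlier results of these data known. Alternatives included DESeq2 1.42.0, limma 3.58.1, other scalings, filters and batch terms, and each clone left out. Promoter sequences are from RefSeq. Some results for single genes are left out of the text and figures.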

Additional observations from a re-analysis of the deposited data

How the results depend on the processing

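The number of genes called between untreated RELB and p52 clones, 1 by the edgeR model, was 58 with DESeq2, 255 without a filter on low counts and 2 with limma voom and the clone as a random effect (STARD4 and RAPGEF4). It was 3 in the 4 untreated libraries alone, paired by batch (HLA-DRA, HLA-DRB5 and HLA-DPB1), and 0 with an effective length offset, without a batch term and with the 14 untreated libraries only. The replicate numbers do not pair the clones: deviations from the genotype mean correlated at −0.0578 between clones of the same number and, as its mirror image with 2 clones a genotype, at 0.0578 between clones of the same batch. With a replicate block in place of batch the count was 0. Leaving out 1 clone gave 0 to 48 genes. The 48, 11 higher and 37 lower, were without RELB replicate 1, and 31 of the 37 lower genes lie on chromosome 7. It was 5 without RELB replicate 2, and 0 without p52 replicate 1 or p52 replicate 2. RLE size factors and a minimum count of 50 left it at 1, as did leaving out p65 replicate 1, an alternative chosen after seeing the data. For the difference between LPS and untreated, edgeR's 0 became 5 with DESeq2 and 68 without a filter. C5AR1 reversed without RELB replicate 1, to a log2 fold of −0.084, and reached 3.25 without RELB replicate 2; the cause was not tested. Of the other gene folds recomputed, 839 kept their direction and side of the threshold, 81 gained a call and 8 lost one. List medians were set against the SD of the 2 within-batch median differences of the list. By that measure 315 moved by less and 30 by more. Where the batch pairs disagree this SD is large, and a list can move far and still count as less. The MHC class II median, 2.22, was 0.997 without RELB replicate 1. Depth bears most on genes of a few CPM, such as IL23A and the HLA-DQ chains.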

Other observations

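Some single genes not described above stood apart between the knockouts. IRF8, a transcription factor of monocyte and dendritic lineages, stood at 72.7 and 86.9 CPM in RELB clones and 126 and 110.3 CPM in p52 clones (log2 fold −0.56 ± 0.18, SE; edgeR adjusted p = 0.634). MCM7, a subunit of the replicative helicase on chromosome 7, stood at 483 and 468 CPM in RELB clones and 969.9 and 559.7 CPM in p52 clones (log2 fold −0.64 ± 0.19); the difference was −1.005 in batch A and −0.26 in batch B. TRIB3, a pseudokinase of the integrated stress response, stood at 188 and 175 CPM in RELB clones, 97.5 and 115 CPM in p52 clones and 173, 320.4 and 250.0 CPM in CTR (log2 fold 0.80 ± 0.35). SLAMF7, a receptor of the SLAM family, stood at 5.99 and 4.71 CPM in RELB clones and 1.79 and 1.27 CPM in p52 clones. TLR1, a partner of TLR2, stood at 2.04 and 1.43 CPM in RELB clones and 0 and 0.289 CPM in p52 clones, where it rests on very few counts. None of these genes passed the test.

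Chromosome medians also set other clones of the series apart. In CTR replicate 1 without LPS the median was 0.491 on chromosome 12, −0.326 on chromosome 6, which holds the MHC class II genes, and −0.266 on chromosome 15; with LPS it was −0.358 on chromosome 6. In p65 replicate 3 the highest chromosome median was 0.591 without LPS and 0.599 with LPS. These values share the gene filter and the median library used for the RELB and p52 clones, and what sets these chromosomes apart was not tested.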
